A study of Phormium tenax with 2 samples.

Results

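The unigenes described here are the 4 that the study assigned to alpha-linolenic acid metabolism, out of 75265 unigenes in the leaf transcriptome of Phormium tenax (New Zealand flax). The study annotated them as SPLA2 (c64401.graph_c0), AOS (c61296.graph_c0) and OPCL1 (c49155.graph_c0 and c49155.graph_c1). The condition of interest was drought (T01), in which potted plants were kept in soil dried to 25% of its water content at saturation, and it was set against the control (T02), kept at 70%. Plants of both groups were 1 year old, the leaf blade was sampled, harvest came 10 days after the soil of the drought pots had reached its target moisture, and the RNA of 3 plants was mixed into 1 library per condition. A unigene is a cluster of transcripts assembled from the reads without a genome, so none of the 4 has a position on a chromosome.

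The study listed these unigenes because they passed its thresholds for higher expression in drought in the same pair of libraries. Their direction is therefore how they were chosen and not a finding, and with 1 pooled library per condition no test of drought against control is possible. The 95% intervals given with the values reflect counting error alone, with each PCR copy taken as a read of its own. Variation between plants was not measurable, and in whole leaf tissue a change in the cells present and a change in RNA per cell cannot be told apart. The tables pair no unigene with a gene name, so the leaf origin could not be checked against marker genes, and no sequence of the members was in the sources used here.

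Jasmonic acid is a lipid-derived plant hormone known for its part in wound, pathogen and water-deficit responses of leaves. Its synthesis starts when a lipase frees alpha-linolenic acid from membrane lipids. In the chloroplast a lipoxygenase adds oxygen to the fatty acid, AOS (allene oxide synthase, a cytochrome P450 also named hydroperoxide dehydratase) turns the hydroperoxide into an unstable epoxide, and a cyclase closes the ring. In the peroxisome a reductase acts on the ring, OPCL1 joins the reduced precursor to coenzyme A, and beta-oxidation shortens it to jasmonic acid. By the study's annotations the members thus stand at the first step, at an early middle step and at a late step of the route. No lipoxygenase, cyclase or reductase unigene is named by the study, so the steps between them were not analysed here.

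All 4 unigenes had more reads and a higher TPM (reads scaled for the length of a unigene and then for the size of the library) in the drought library. Together they took 3683 of 17744121 reads in drought and 449 of 18540697 reads in control. Their TPM values summed to 275 in drought and 34.4 in control, with both OPCL1 unigenes counted. On the log2 scale of TMM-scaled reads with 1 read added (log2FC, drought over control) all 4 of the 4 reached the study's fold threshold of 2, beside 27.6% of the 71410 unigenes with reads. Among the 16503 unigenes with at least 100 reads over both libraries, as each of the 4 has, 7.22% reached it. Since the members were picked by this contrast, nothing is read from their count.

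**Figure D1:**
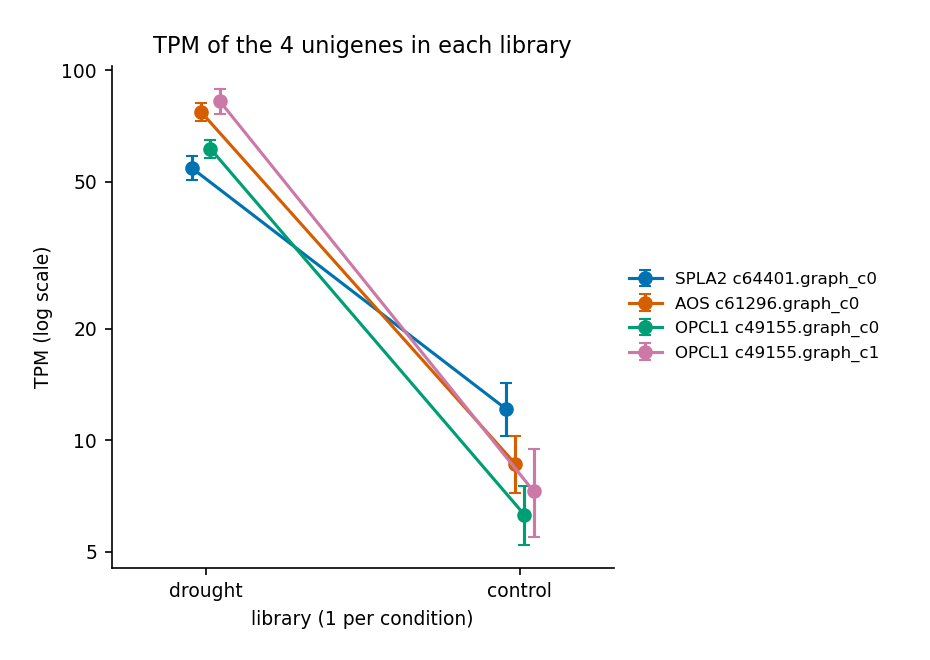
TPM (log axis) of the 4 unigenes in the drought and control libraries, with 95% Poisson counting intervals as bars; points are shifted sideways for legibility and lines join the values of 1 unigene. SPLA2 has the highest value of the 4 in control (12.2 TPM) and the lowest in drought (54.5 TPM), so its line crosses the others.

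SPLA2, the phospholipase A2 of the list, had 714 reads in drought and 146 in control. These were 54.5 TPM (interval 50.5 to 58.6) in drought and 12.2 TPM (interval 10.3 to 14.3) in control. Its log2FC was 2.06 (interval 1.81 to 2.33), a 4.17-fold difference in scaled reads, and it is the member nearest the threshold of 2. With upper-quartile scaling the log2FC was 1.85, and with reads divided by the effective length of each library it was 1.95, both short of the threshold. The study calls the enzyme a secretory phospholipase A2, while the KEGG orthology group it gives for this unigene is a group of lipases named for acting on triacylglycerols as well as on phospholipids. Which of these the transcripts encode was not tested.

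The SPLA2 unigene gathers 9 assembled transcripts, a number that 4.47% of all unigenes reach or pass. Its length was 873 bp in drought and 817 bp in control, a difference of 56.3 bp or 6.89%. The length in the tables differs between the libraries for unigenes with several transcripts, and is taken here to be an average of their lengths weighted by abundance, although the sources do not say so. The shift was not unusual in size, because 29.6% of the 9127 unigenes with several transcripts and at least 100 reads in each library shifted by as much or more, in either direction. Which of the transcripts carried the drought reads cannot be read from values given per unigene.

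AOS is the enzyme that commits the fatty acid hydroperoxide to the jasmonate branch. Its unigene had 1135 reads in drought and 127 in control, which were 77.2 TPM (interval 72.7 to 81.8) in drought and 8.66 TPM (interval 7.22 to 10.3) in control. The log2FC was 2.93 (interval 2.67 to 3.21), a 7.60-fold difference in scaled reads. The unigene holds 2 transcripts, and its length was 970 bp in drought and 982 bp in control, a shift that 66.3% of the same 9127 unigenes matched or passed in size. Dividing by effective length therefore moved its log2FC little, to 2.95.

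OPCL1 is represented by a pair of unigenes of 1 Trinity component, c49155, which holds no other unigene. The longer, c49155.graph_c0 (1253 bp, 1 transcript), had 1188 reads in drought and 120 in control, which were 61.4 TPM (interval 57.9 to 64.9) in drought and 6.30 TPM (interval 5.22 to 7.53) in control. Its log2FC was 3.07 (interval 2.81 to 3.37). The shorter, c49155.graph_c1 (552 bp, 1 transcript), had 646 reads in drought and 56 in control, which were 82.5 TPM (interval 76.2 to 89.1) in drought and 7.28 TPM (interval 5.50 to 9.45) in control. Its log2FC was 3.28 (interval 2.91 to 3.73), the highest of the 4. Whether they are pieces of 1 transcript or separate genes was not tested, so a sum of their TPM values may count 1 transcript more than once.

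The OPCL1 reads were divided between the pair in proportions that did not differ between the libraries beyond counting error. The shorter unigene took 35.2% of 1834 OPCL1 reads in drought (exact binomial interval 33.0% to 37.5%) and 31.8% of 176 in control (interval 25% to 39.2%). The difference was 3.41 percentage points, with a 95% interval of -4.12 to 10.2 by the Newcombe method, so a shift between them was not detectable at this depth. In TPM the shorter unigene was 1.34 times the longer in drought (interval 1.22 to 1.48) and 1.16 times in control (interval 0.826 to 1.60). With their reads summed, OPCL1 had a log2FC of 3.15 (interval 2.93 to 3.39), or 8.88-fold more scaled reads in drought.

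The log2FC difference within the OPCL1 pair is given beside those of other unigenes that share a component. With at least 100 reads in each unigene there were 1813 such pairs besides OPCL1, from 1422 components, and their log2FC values differed by a median of 0.51. The OPCL1 values differed by 0.21, and 24.3% of the other pairs differed by no more than that. Both OPCL1 unigenes were chosen for a log2FC past the threshold in these libraries and the other pairs were not, so these values describe the pair and nothing is read from the comparison.

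**Figure D2:**
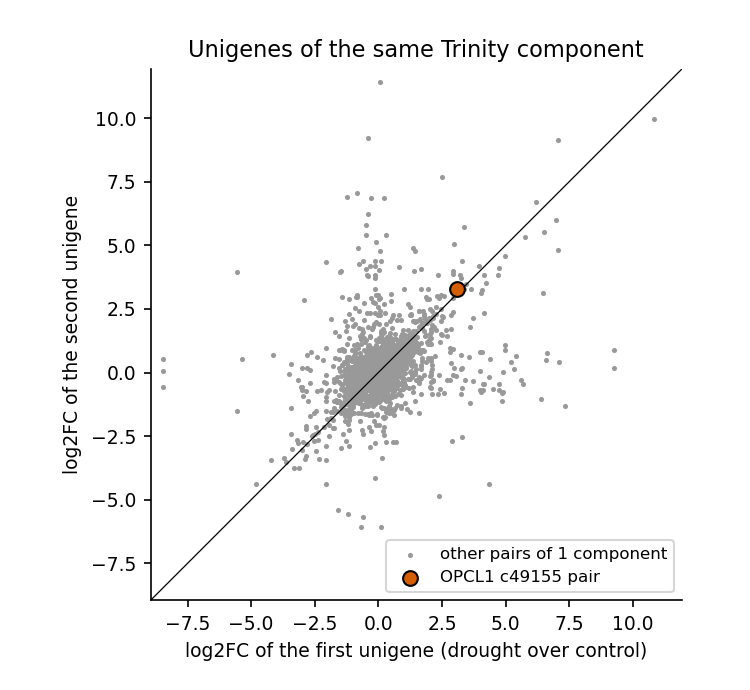
Each point is a pair of unigenes of 1 Trinity component with at least 100 reads each, placed by the log2FC (drought over control) of its first unigene on the horizontal axis and of its second on the vertical axis; the line marks equal values. The OPCL1 pair lies close to the line, at 3.07 and 3.28, while the arms of points along each axis are pairs in which only 1 unigene moved far from 0.

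SPLA2 differed less between the libraries than the other members did. These differences do not depend on the scaling of the libraries, which cancels within each pair of unigenes, and 3 of the 6 pairs of members had a counting interval that left out 0. The log2 drought-to-control ratio of AOS exceeded that of SPLA2 by 0.87 (interval 0.49 to 1.25). That of c49155.graph_c0 exceeded it by 1.02 on the log2 scale (interval 0.63 to 1.40) and that of c49155.graph_c1 by 1.24 (interval 0.76 to 1.74). The order among AOS and the OPCL1 unigenes was not detectable at this depth, since c49155.graph_c1 and AOS differed by 0.37 with an interval of -0.12 to 0.87.

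The order of the levels, compared per length in TPM, differed accordingly. In drought it ran from c49155.graph_c1 (82.5 TPM) through AOS (77.2 TPM) and c49155.graph_c0 (61.4 TPM) to SPLA2 (54.5 TPM). The first and second of these did not differ beyond counting error (ratio 1.07, interval 0.969 to 1.18), whereas AOS was above c49155.graph_c0, and c49155.graph_c0 was 1.13 times SPLA2 (interval 1.03 to 1.24). In control the order began with SPLA2 (12.2 TPM), followed by AOS (8.66 TPM), c49155.graph_c1 (7.28 TPM) and c49155.graph_c0 (6.30 TPM), and the only neighbours there that differed beyond counting error were SPLA2 and AOS. AOS was thus 1.42 times SPLA2 in drought (interval 1.29 to 1.56) and 0.710 times SPLA2 in control (interval 0.556 to 0.907). For OPCL1, both unigenes summed, the TPM ratio to AOS was 1.86 in drought (interval 1.73 to 2.01) and 1.57 in control (interval 1.24 to 1.99), and these intervals overlap. That sum counts 1 transcript more than once if the pair are its pieces, which was not tested. Singly, c49155.graph_c0 was 0.795 times AOS in drought and 0.727 times in control. The ratio of c49155.graph_c1 to AOS was 1.07 in drought and 0.841 in control. As a share of the summed TPM of the 4 unigenes, SPLA2 made up 19.8% in drought and 35.4% in control, AOS 28.0% in drought and 25.2% in control, and OPCL1 52.2% in drought and 39.4% in control. These shares rest on the same OPCL1 sum and carry the same limit.

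The members ranked higher by TPM in the drought library than in the control library among the 71410 unigenes with reads. In drought between 95.5% and 97.3% of these unigenes had a lower TPM than a given member, and in control between 78.7% and 84.5% did. By rank they stood between places 1959 and 3224 of 75265 in drought and between 11061 and 15190 in control. Over these 71410 unigenes, 27.1% had a higher log2FC than SPLA2, 10.2% than AOS, 8.16% than c49155.graph_c0 and 6.58% than c49155.graph_c1. Of the 16503 with at least 100 reads, 6.89% had a higher log2FC than SPLA2, 4.12% than AOS, 3.76% than c49155.graph_c0 and 3.40% than c49155.graph_c1. These places follow from how the members were chosen.

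**Figure D3:**
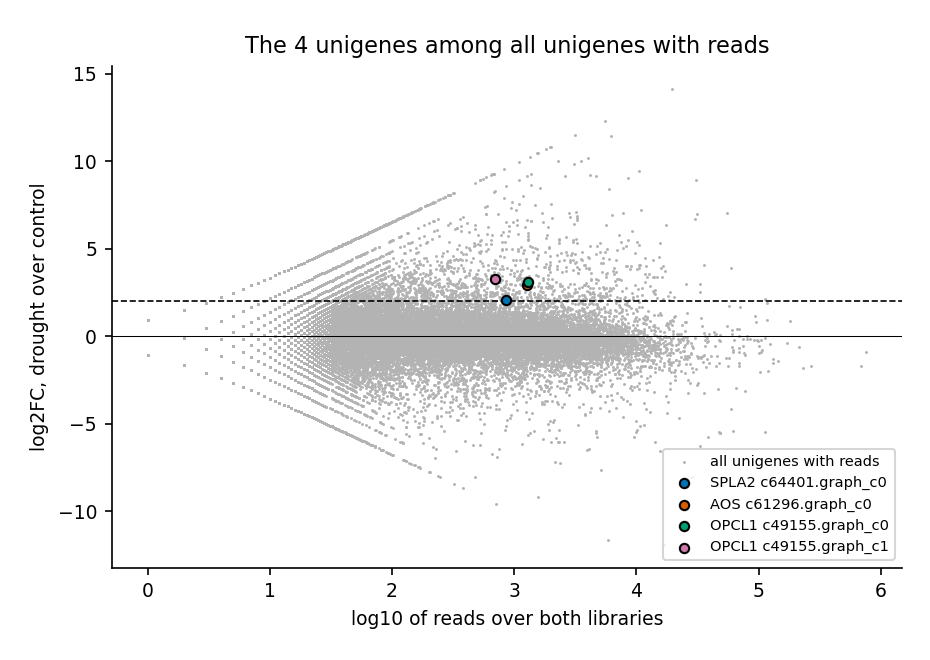
The log2FC (drought over control) of the 71410 unigenes with reads in either library against the log10 of their reads over both libraries; the 4 members are drawn in colour and the dashed line marks a log2FC of 2. AOS and c49155.graph_c0 nearly coincide, SPLA2 lies on the dashed line, and the fan of points at the left comes from unigenes with few reads.

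The scaling of the libraries moved all 4 members by nearly the same amount, whereas dividing by effective length lowered SPLA2 to 1.95 and left the others close to their TMM values. Over 8 other settings the log2FC of SPLA2 ranged between 1.85 and 2.35, that of AOS between 2.71 and 3.22, that of c49155.graph_c0 between 2.86 and 3.36 and that of c49155.graph_c1 between 3.07 and 3.57. Relative to TMM, total reads alone raised the log2 ratio of all unigenes by 0.29 and upper-quartile scaling lowered it by 0.21. Under every one of these settings SPLA2 remained the lowest of the 4 and c49155.graph_c1 the highest. Library scaling shifts all members nearly alike, so it could hardly change this order. The lead of c49155.graph_c1 over AOS and c49155.graph_c0 was within counting error.

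**Figure D4:**
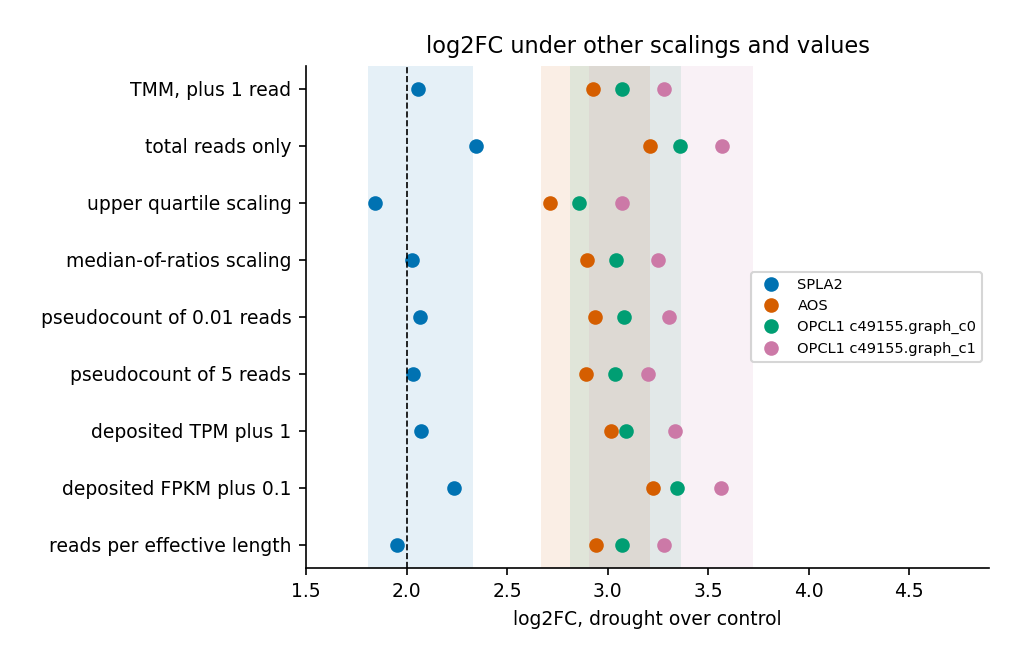
The log2FC (drought over control) of each member under TMM scaling with 1 read added (top) and under 8 other scalings, added counts or deposited values; shaded bands are the 95% counting intervals of the top values and the dashed line marks 2. SPLA2 lies left of the line with upper-quartile scaling (1.85) and per effective length (1.95), and the other members lie right of it throughout.

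The products of this route act through JAR1, which joins jasmonic acid to isoleucine, through the JAZ proteins, which repress jasmonate responses until the hormone marks them for degradation, and through MYC2, a transcription factor that JAZ proteins hold inactive. Under hormone signal transduction the study lists 5 unigenes of this signalling part, also chosen on these libraries. A further unigene that its primer list labels MYC was not included here. Of the 5, 4 had a log2FC of at least 2 and 1 of at most -2. Of all unigenes with reads, 27.6% and 17.5% did so. Of the 16503 unigenes with at least 100 reads over both libraries, as each of the 5 has, 1192 and 801 did so. The median log2FC of the 5 was 3.88, beside 3.0 for the 4 members. It was 0.38 for all unigenes with reads and -0.07 for those with at least 100 reads. JAR1 (c44105.graph_c0) was the exception, with 0.72 TPM in drought and 3.25 TPM in control. The JAZ unigene c65972.graph_c1 had 85.0 TPM in drought and 0.92 TPM in control, so that in drought it was at the level of the highest member. In control each of the 5 signalling unigenes, at 0.92 to 3.25 TPM, was below each of the precursor synthesis unigenes, at 6.30 to 12.2 TPM.

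**Figure D5:**
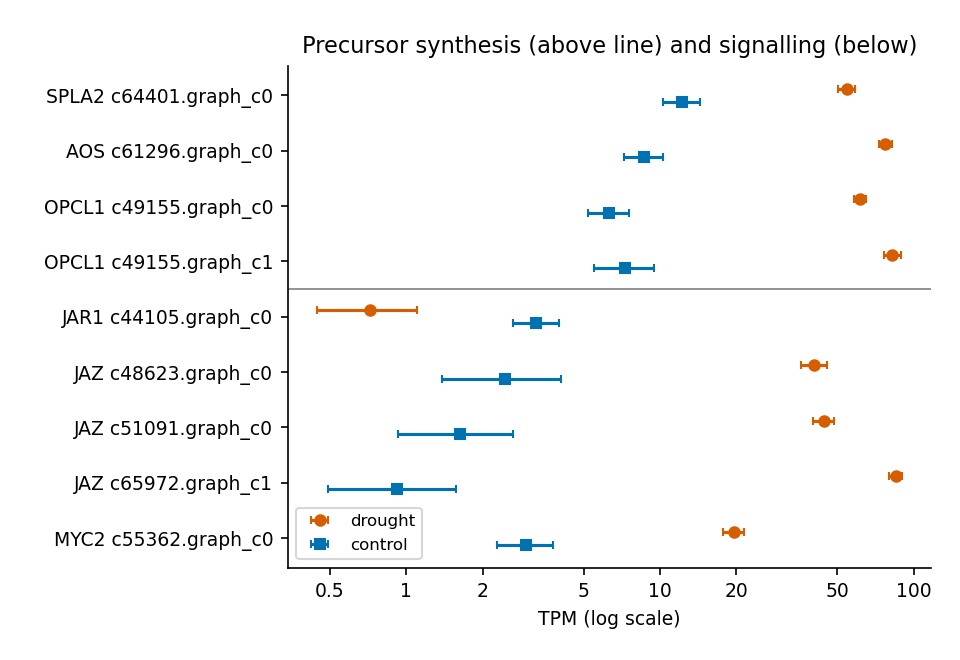
TPM (log axis) in the drought library (circles) and the control library (squares) with 95% Poisson counting intervals, for the 4 precursor synthesis unigenes above the line and the 5 jasmonate signalling unigenes below it. In control the precursor synthesis unigenes, at 6.30 to 12.2 TPM, all lie right of the signalling unigenes, and JAR1 is the only unigene whose drought value lies left of its control value.

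Among the other 58 unigenes that the study names, 43 had a higher log2FC than SPLA2, 28 than AOS, and 27 than each OPCL1 unigene. Over the 71410 unigenes with reads the shares were 27.1% for SPLA2, 10.2% for AOS, 8.16% for c49155.graph_c0 and 6.58% for c49155.graph_c1. The study drew its lists largely from unigenes past its thresholds in these libraries, so nothing is read from these places. The named unigene most like each member was taken as the nearest in log2(TPM + 1) over the 2 libraries, which are the only points available. For SPLA2 it was a glutathione metabolism unigene, c54014.graph_c0, with 49.4 TPM in drought and 10.1 TPM in control (distance 0.28). For AOS it was a starch and sucrose metabolism unigene, c58481.graph_c0, with 67.0 TPM in drought and 12.4 TPM in control (distance 0.51). For both OPCL1 unigenes it was the WRKY transcription factor unigene c57387.graph_c0, with 60.9 TPM in drought and 5.10 TPM in control (distances 0.26 and 0.62). Of all 75265 unigenes, 54 lay within 0.25 log2 units of SPLA2 in both libraries, and 15 to 16 did so for each of the others. The nearest named unigene was thus not the only one near its member.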

How the data were processed

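Total RNA of leaf blades was pooled from 3 plants per condition, and the authors filtered and assembled the paired reads of both libraries with Trinity. The submitters' processing notes name Bowtie 0.12.2, Cufflinks and the mouse build mm8, with no role given. The program that estimated the counts is not named in the sources used here. The authors deposited per unigene an expected count (estimated reads, not normalized), an FPKM and a TPM value (scaled for effective length and library size), with lengths in bp. Expected counts were rounded to whole numbers. TMM scaling came from edgeR 4.0.16, run in R 4.3.3. Total reads, upper-quartile scaling and the median-of-ratios factors of DESeq2 1.42.0 served as alternatives, as did other added counts, the TPM and FPKM values and reads per effective length. The log2FC is the log2 ratio of scaled reads with 1 read added. The interval of a log2FC was taken from the Clopper-Pearson limits of the share of reads in drought. Those of TPM are exact Poisson, and those of differences between members are conditional exact (Python 3.11.15, SciPy 1.17.1). The fold threshold of 2 is the study's; its EBSeq test was not run and no p-value is given. Log2FC recovery and interval coverage were tested only on simulated counts with Poisson error, the error that the intervals assume. That test therefore cannot tell how the intervals fare with variation between plants. The members, the signalling list and the rule for named unigenes (members, unigenes of their components, the signalling unigenes, and the nearest unigene the study names) were chosen with earlier results of these data known. The tables hold no column of the authors' own comparisons.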

Additional observations from a re-analysis of the deposited data

How the results depend on the processing

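Of the 40 values that the alternatives gave for the log2FC of the members and of the OPCL1 sum, 35 lay within the counting interval of the TMM value, 5 outside it and 0 on the other side of 0. Those outside were higher: with total reads only SPLA2 was 2.35, AOS 3.21 and the OPCL1 sum 3.44, and from FPKM plus 0.1 AOS was 3.22 and the OPCL1 sum 3.48. Members were chosen for a log2FC past 2, and scaling moved the ratios by at most 0.29, so a change of side was hardly possible. The values of the OPCL1 sum also reuse the reads of its unigenes. Members with a log2FC of at least 2 numbered 4, beside 27.6% of all unigenes with reads. They numbered 3 with upper-quartile scaling (26.7% of all) or per effective length (27.5% of all), since SPLA2 fell short. At a threshold of 3 they numbered 2 (10.1% of all). The members were picked by this contrast, so nothing is read from these counts. Over all unigenes with reads, 19681 were at least 2 higher in drought and 12477 lower (61.2% higher). Of the same 71410 unigenes, the number higher was 2896 (4.06%) with 5 reads added, 6078 (8.51%) from TPM plus 1 and 7199 (10.1%) at a threshold of 3. Among fewer unigenes it was 6949 of 39163 (17.7%) with at least 10 reads and 1192 of 16503 (7.22%) with at least 100. Of the unigenes past the threshold 72% were higher with total reads only (24067 higher against 9345 lower), and 72.7% from TPM plus 1. For the division of OPCL1 reads the only alternative was TPM, with a difference of 3.73 percentage points. It rests on the same reads and on fixed lengths, so it is no separate check. The share of similar pairs was 22.6% with a minimum of 50 reads and 25.5% with 500. These sets of pairs overlap with the main set, so they are no separate check either. For the TPM ratios of AOS over SPLA2 and of the OPCL1 sum over AOS, the alternatives were FPKM and reads per effective length. Within a library both are nearly proportional to TPM, so the close values they gave were built in and are no check of these ratios. The other TPM ratios between members were given no alternative. With 1 library per condition no replicate could be left out. No paired analysis was possible because each condition has 1 library. The control reads of the members (56 to 146) set the width of the intervals.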
